A study of Homo sapiens with 4 samples.

Results

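PRNP, the gene of the prion protein PrP, was followed across 19 tumor cell sub-populations of 4 related lung adenocarcinoma lines. It is 1 of 19973 genes in the deposited table of corrected single-cell counts and was found by its symbol, which had 1 row. The lines were R2 and C2, recovered from brain metastases that PC9-BrM4 cells formed over 2 rounds in animals given the EGFR inhibitor osimertinib (R2) or vehicle (C2), PC9-BrM4 itself (labelled BM4), selected in vivo for brain metastasis from PC9, and parental PC9, a human line with an EGFR exon 19 deletion from which the other lines descend. All were grown in culture for 3 days without drug before 1 single-cell RNA sequencing (scRNA-seq) library was made from each line, from 3 passages combined. The authors clustered the cells of the 4 libraries together, so that each value is a mean over the cells of a sub-population and not of a line. Following the study's text, sub-populations 1 and 5 were taken as R2, 0 and 4 as C2, and 8 as shared by R2 and C2. Sub-populations 6 and 7 were taken as PC9-BrM4 and 2 and 3 as PC9 from the study's plot of the lines. Numbers 9 to 18 were placed in no line. In each pair, the sub-population with more transcripts of G2/M phase genes (3, 4, 5 and 6) is called mitotic here, and the other non-mitotic.

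PrP is a glycoprotein held at the outer face of the plasma membrane by a glycosylphosphatidylinositol (GPI) anchor. It binds copper ions through repeats near its amino end, it is abundant on neurons, and many other tissues, epithelia included, also make it. Its misfolded form is the agent of prion diseases. The cell surface protease ADAM10 sheds it, and it has been reported to bind laminin, the laminin receptor RPSA and the co-chaperone STIP1. The study names PRNP as a neuronal synapse gene that was high in R2-enriched sub-populations and counts it in its metastasis and resistance list (MetRes). That list was chosen on these samples, so the presence of PRNP in it is not independent evidence of its level.

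PRNP lies on chromosome 20 of GRCh38 at chr20:4686350-4701590, on the plus strand (GENCODE 44, ENSG00000171867.18). In its canonical transcript, exon 1 spans 57 bases and exon 2 spans 2378 bases, and the whole coding sequence of 759 bases is in exon 2. The libraries read the 3′ ends of transcripts, which for this transcript lie in exon 2, so that the values say nothing of exon 1. PRND, the neighboring gene of the PrP-like protein doppel, starts at 4721909 and had 7 corrected UMIs (unique molecular identifiers, each marking 1 captured transcript) in all, against 42785 for PRNP. SPRN and PRNT, the other listed members of the family, had no row in the corrected table. PRNP was therefore the 1 family member with a measurable level in these cells.

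The 19 sub-populations held 24441 cells, between 111 and 3373 each, with a total of 12491 to 15635 corrected UMIs per cell. Raw depth, relative to the median of sub-populations 0 to 8, was between 0.936 and 1.06 in those 9, and was 0.382 in 13, 0.426 in 14 and 0.505 in 16. All 7 epithelial markers were present, summing to between 17061 and 25058 CPM (corrected UMIs of a gene among 1000000 in the sub-population) in sub-populations 0 to 8. The alveolar markers NKX2-1, SFTPB and SFTPA1 had no row, and the 4 others summed to at most 1.69 CPM there, at or near 0. Of 9 leukocyte and microglia markers, 4 had a row and summed to between 56.2 and 73.3 CPM in the R2 and C2 sub-populations and between 24.7 and 34.4 CPM in the PC9 and PC9-BrM4 sub-populations. That sum was almost all CD68, a lysosomal glycoprotein that epithelial cells can also make. The defining leukocyte marker PTPRC was at 0.17 CPM or less in sub-populations 0 to 8, and AIF1, CX3CR1, P2RY12, CD3E and MS4A1 had no row. Of 12 neural markers, 8 had a row and summed to between 35.1 and 56.7 CPM in the R2 and C2 sub-populations. In the PC9 and PC9-BrM4 sub-populations they summed to between 66.4 and 90.0 CPM. Only 1 of the 8 had a mean of 10 CPM or more, so that the sum gives no direction for the list. SNAP25, SYT1 and RBFOX3 were each at 0.37 CPM or less in sub-populations 0 to 8. Of 10 stromal and endothelial markers, 5 had a row and summed to at most 6.77 CPM there.

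PRNP transcripts were found in every sub-population, and the levels fell into groups by line. In R2 sub-populations PRNP was at 139 CPM in 5 and 141 CPM in 1. In C2 sub-populations it was at 158 CPM in 4 and 168 CPM in 0. In PC9-BrM4 sub-populations it was at 71.1 CPM in 6 and 76.4 CPM in 7, and in PC9 sub-populations at 39.9 CPM in 3 and 55.0 CPM in 2. No value of R2 or C2 overlapped with one of PC9-BrM4 or PC9, and none of PC9-BrM4 with one of PC9. Such a lack of overlap, in either direction, was common. It held for 30.0% of 7397 and 41.8% of 7568 genes with a mean of 10 CPM or more. Sub-population 8, which both R2 and C2 contribute to, held the highest level of all 19 at 254 CPM. As a mean over cells, these levels cannot tell more cells with PRNP transcripts from more transcripts per cell.

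The same levels in mean corrected UMIs per cell were 3.70 in sub-population 8 (95% exact Poisson interval 3.59 to 3.81), 2.35 in 0 (2.30 to 2.40) and 0.614 in 3 (0.585 to 0.645). The intervals cover counting error only. They take each UMI as independent, and so leave out the uneven spread of PRNP between cells, described further on, which would widen them. No interval here covers the difference between cultures, since each line had 1 library. The intervals reached 2.21% to 5.28% of the level to either side in sub-populations 0 to 8, and up to 20.3% in the smaller ones. The highest level was 6.36 times the lowest. When the 19 sub-populations were put in order of PRNP, 7 of the 18 neighboring pairs differed by more than counting error and 11 did not. The steps beyond counting error were 8 over 15 (ratio 1.15), 15 over 0 (1.32), 0 over 10 (1.06), 5 over 13 (1.17), 13 over 7 (1.56), 6 over 12 (1.13) and 2 over 3 (1.38). Between them, 10, 4, 17, 1, 9, 14 and 5 formed 1 run from 159 to 139 CPM in which no neighbor differed from the next beyond its interval, and 7, 11, 16 and 6 formed another from 76.4 to 71.1 CPM. The largest step, 13 over 7, separated the R2 and C2 sub-populations, which all lay above 13, and the PC9-BrM4 and PC9 sub-populations, which all lay below it.

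**Figure D1:**
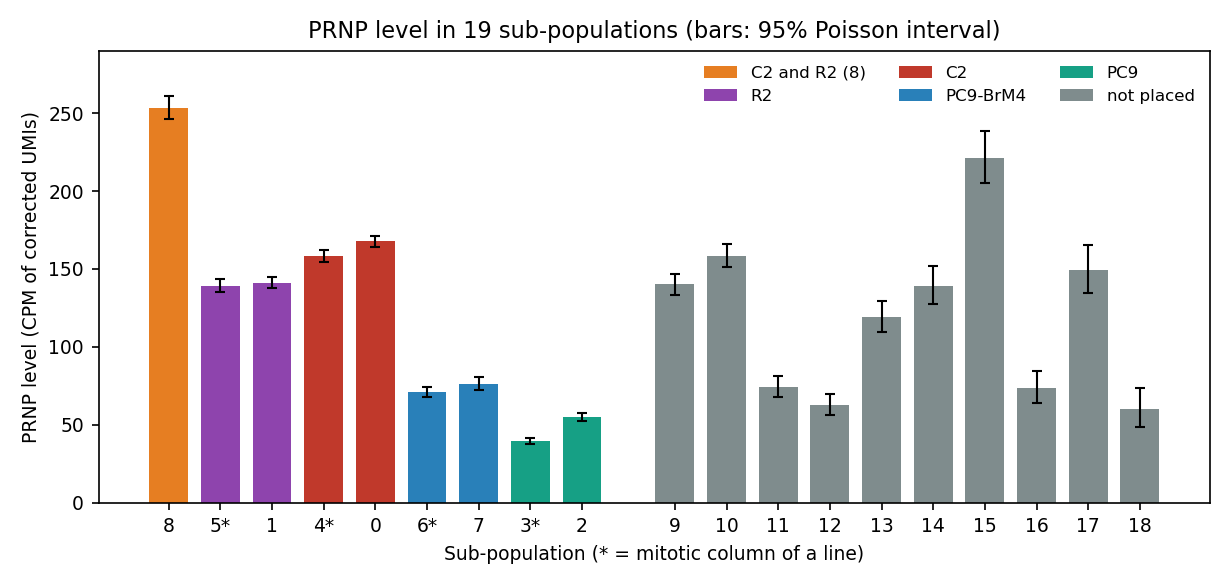
PRNP level (y axis, CPM of corrected UMIs) in each of the 19 sub-populations (x axis), colored by the line they were placed in, with 95% exact Poisson intervals and an asterisk on the mitotic column of each line. The R2 and C2 columns stand between 139 and 168 CPM, the PC9-BrM4 columns at 71.1 and 76.4 CPM, the PC9 columns at 39.9 and 55.0 CPM, and sub-population 8 at 254 CPM.

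The next comparisons asked how far PRNP stood from other genes between the lines. For each gene with a mean of 10 CPM or more (a measured gene), an effect was computed as the mean log2(CPM + 5) of 1 group of sub-populations less that of the other, a scale that understates the change of low genes. The mean was taken over both groups, so that a gene low in 1 group could be measured through the other. Genes with an effect of 1 or more in size (2-fold on that scale) and no overlap between the groups were called higher or lower. The shares of all genes called were counted by the same rule. No p was computed, since the sub-populations are not replicates of a line.

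R2 and C2 sub-populations had a mean PRNP level of 152 CPM, against 60.6 CPM in PC9 and PC9-BrM4 sub-populations. The effect was 1.29 (95% counting interval 1.25 to 1.33), and PRNP was called higher, as were 105 of 7397 measured genes (1.42%), while 76 genes (1.03%) were called lower. The PRNP effect was the 50th largest. The closest pair across the groups, R2 mitotic sub-population 5 and PC9-BrM4 non-mitotic sub-population 7, still differed by a ratio of 1.82 (1.72 to 1.94). The median effect of all genes was -0.14, and the call held without any 1 of the 8 sub-populations.

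Each of the steps between the lines was then taken alone. PC9-BrM4 sub-populations averaged 73.8 CPM and PC9 sub-populations 47.4 CPM. The effect of 0.60 (0.54 to 0.66) was short of 2-fold and PRNP was not called. At 2-fold, 7 of 7568 genes (0.0925%) were called higher and 29 (0.383%) lower. Few genes rose as far as PRNP, whose effect was the 36th largest, but falls were more common. At a size of 0.5 in place of 1, 352 genes were called in either direction. The ratio was 1.78 (1.67 to 1.91) between the mitotic sub-populations and 1.39 (1.30 to 1.49) between the non-mitotic ones. Without sub-population 3, the lowest of all 19, the effect was 0.39.

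C2 sub-populations averaged 163 CPM, against 73.8 CPM in PC9-BrM4. The effect was 1.09 (1.04 to 1.15) and PRNP was called higher, as were 126 of 7257 genes (1.74%), while 60 genes (0.827%) were called lower. With a pseudocount of 20 in place of 5 the effect was 0.96 and the call was lost. R2 sub-populations averaged 140 CPM against the same 73.8 CPM, an effect of 0.88 (0.83 to 0.94) that was not called. In the table of uncorrected counts, described further on, that effect was 1.43 and passed 2-fold, but there the cells with most UMIs weigh most. Here 171 of 7214 genes (2.37%) were called higher and 183 (2.54%) lower, and PRNP was the 231st from the top, against the 96th in C2. Both comparisons share the PC9-BrM4 sub-populations, so that they are not independent of each other.

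R2 and C2 were also set against each other directly. PRNP averaged 140 CPM in R2 and 163 CPM in C2 sub-populations, which did not overlap, as in 52.9% of all measured genes. The effect of -0.21 (-0.25 to -0.17) was not called, where 25 of 7133 genes (0.35%) were called lower. The gap was small beside the spread of other genes, of which 32.1% had a lower effect. C2 over R2 was 1.14 (1.09 to 1.18) between mitotic and 1.19 (1.15 to 1.23) between non-mitotic sub-populations. In the corrected table PRNP was thus no higher in R2 than in C2 sub-populations in either pair. Sub-population 8, at 254 CPM, was in neither pair, since R2 and C2 share it. The study counts 8 with 1 and 5 as its R2-enriched sub-populations. These pairs therefore do not test the study's statement on PRNP, nor do they compare the means of whole lines. In the table of uncorrected counts, described further on, the effect of R2 against C2 was -0.0018. There R2 stood at 420 against 393 in C2 among mitotic sub-populations, on that table's rescaled scale. Among non-mitotic sub-populations R2 stood at 215 against 230 in C2. The order of R2 and C2 thus turned round between the tables in the mitotic pair and did not in the non-mitotic pair. The uncorrected table gives most weight to the cells with most UMIs, so that it does not rank mean levels. Among mitotic sub-populations the highest count in a cell was at most 19 in R2 and 18 in C2.

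Sub-population 8 had 254 CPM of PRNP, against a mean of 152 CPM in the R2 and C2 sub-populations. The effect of 0.73 (0.68 to 0.77) was not called in the corrected table, where 45 of 7159 genes (0.629%) were called higher, but was the 97th largest. Its level was 1.51 times (1.46 to 1.57) that of sub-population 0, the next highest of 0 to 8. Its G2/M genes summed to 2405 CPM, the lowest of those 9.

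**Figure D2:**
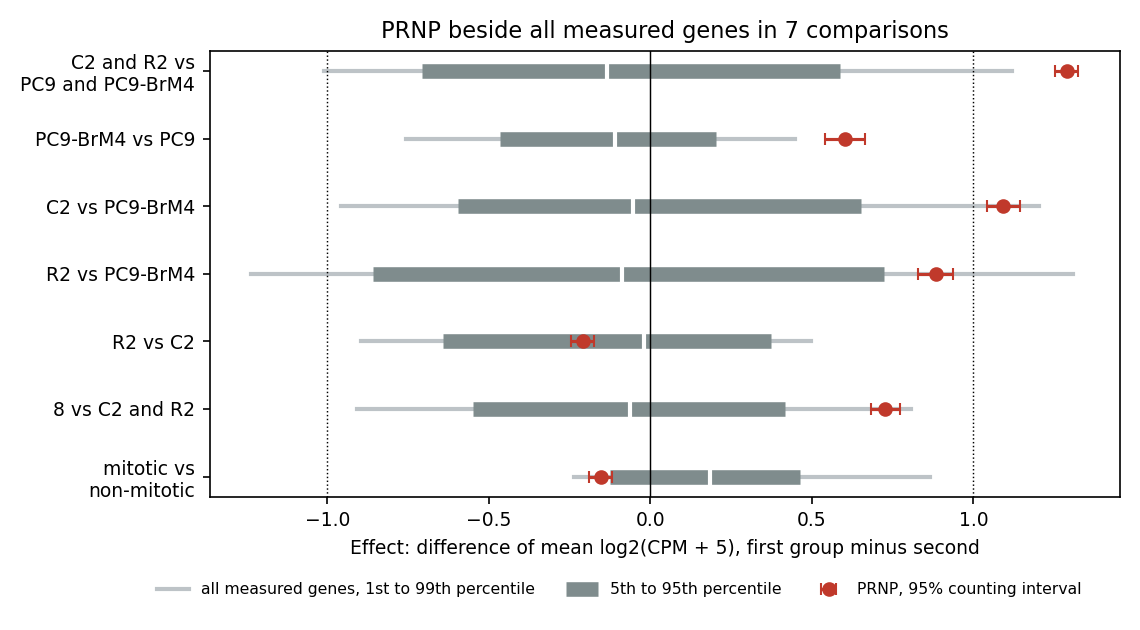
Effect of PRNP (points with 95% counting intervals) in the 7 comparisons (y axis) beside the effects of all measured genes (bars, 5th to 95th and 1st to 99th percentile, with the median in white), on the scale of log2(CPM + 5) (x axis), dotted lines marking 2-fold. PRNP lies beyond the 99th percentile at 1.29 and 0.60 in the upper pair of comparisons and among the bulk of genes at -0.21 between R2 and C2.

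The mitotic and non-mitotic sub-populations of each line were then compared. Neither the labels nor the study's text gives these names. The listed G2/M genes summed to 6222 to 9016 CPM in the mitotic and 3536 to 4943 CPM in the non-mitotic sub-populations, so that the latter were not free of them. In R2, PRNP was at 139 CPM in the mitotic and 141 CPM in the non-mitotic sub-population, a ratio of 0.988 (0.95 to 1.03). In C2 it was at 158 and 168 CPM in the same order (0.944, 0.913 to 0.977). In PC9-BrM4 it was at 71.1 and 76.4 CPM (0.930, 0.868 to 0.997), and in PC9 at 39.9 and 55.0 CPM (0.725, 0.679 to 0.773). The ratio was therefore under 1 in all 4 lines, with the smallest ratio in PC9. Its counting interval, which leaves out the spread between cells, excluded 1 in 3 of them. Over the 4 lines the effect was -0.15 (-0.19 to -0.12) and PRNP was not called, as 0 of 7397 genes (0%) were called lower. Because the median gene stood at 0.18 in this comparison, PRNP was the 247th from the bottom. Leaving out 1 sub-population unbalances the lines and gave effects of either sign, between -0.42 and 0.21, and the table of uncorrected counts gave 0.72, so that no direction is claimed beyond the corrected values within each line.

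**Figure D3:**
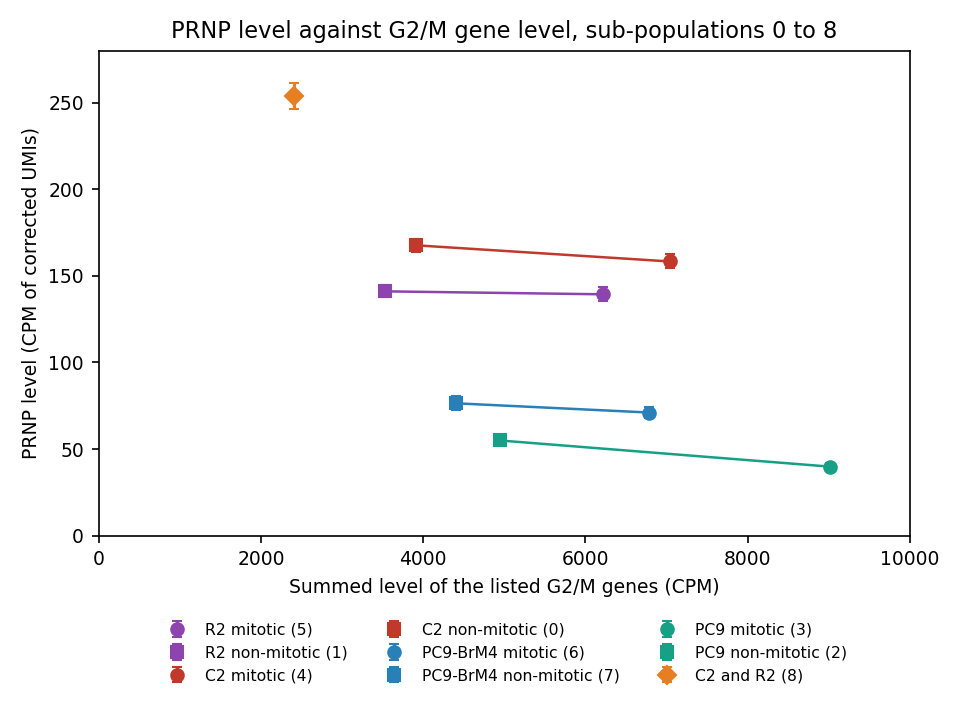
PRNP level (y axis, CPM) against the summed level of the listed G2/M genes (x axis, CPM) in sub-populations 0 to 8, with a line joining the mitotic (circle) and non-mitotic (square) sub-populations of each line and 95% exact Poisson intervals. Each joining line is nearly flat except that of PC9, at 39.9 CPM in the mitotic and 55.0 CPM in the non-mitotic sub-population. Sub-population 8 stands alone at 254 CPM of PRNP and 2405 CPM of G2/M genes.

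The 10 smaller sub-populations held 3781 cells (15.5%) and were set beside the most similar of sub-populations 0 to 8, found by Spearman's rho across measured genes other than PRNP. In 8 of the 10, all but 13 and 18, the PRNP level was between 0.873 and 1.14 times that of its match. Sub-population 15, matched to 8, had 221 CPM, the second highest level. Numbers 9 and 17, matched to C2 sub-population 4, had 140 and 149 CPM, 10, matched to R2 sub-population 5, had 159 CPM, and 14, matched to R2 sub-population 1, had 139 CPM. Numbers 11 and 12, matched to PC9-BrM4 sub-population 6, had 74.6 and 62.8 CPM, and 16, matched to PC9-BrM4 sub-population 7, had 73.8 CPM. The interval of the ratio excluded 1 in 9, 10, 12 and 15 and included it in 11, 14, 16 and 17. In 16 most other genes stood lower against the match, and the PRNP effect was above that of 98.9% of 5367 genes.

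Sub-populations 13 and 18 were further from their match. Sub-population 18 was nearest to 8 over all genes (rho 0.889) but had 60.2 CPM of PRNP, 0.237 times (0.192 to 0.290) the 254 CPM of 8, from 98 corrected UMIs in 111 cells. Of 7370 genes measured in that pair, 0.312% had a lower effect. Sub-population 13 was nearest to PC9 sub-population 2 (rho 0.948) and had 119 CPM against 55.0 CPM, a ratio of 2.16 (1.97 to 2.38), with 99.4% of 6349 genes below its effect. Its cells were the shallowest in raw depth, at 0.382, and the part of depth in this value was not tested.

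The second deposited table gave a view of single cells that the means do not. Its values are the mean over cells of e to the power of the uncorrected count, less 1, which the cells with most UMIs dominate, and which bound the highest count of any cell from above and below. In R2 sub-populations the highest PRNP count in any cell was between 12 and 19 UMIs in 5 and between 6 and 13 in 1. In C2 it was between 11 and 18 in 4 and between 6 and 13 in 0. In PC9-BrM4 it was between 5 and 11 in 6 and between 2 and 8 in 7, and in PC9 between 3 and 10 in 3 and between 2 and 9 in 2. The highest cells thus held more PRNP in R2 and C2 than in PC9 sub-populations when mitotic sub-populations were compared, and the bounds of the non-mitotic ones overlapped.

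Sub-population 8 stood apart. Its highest cell had between 51 and 58 UMIs of PRNP, and the sum over its 1207 cells differed from that of 1 cell with 58 UMIs by a share of 3.78e-11. What was left matched 1 cell with 34 UMIs within 0.0546%, and every other cell had at most 26. The count of 58 is 15.7 times the mean of 3.70 corrected UMIs. It is 1.30% of the summed corrected UMIs of sub-population 8, and without that many UMIs the mean would be 3.65, so that the high mean did not rest on this cell. In the table of uncorrected counts, where this cell does weigh, the effect of sub-population 8 against R2 and C2 was 2.68 and passed 2-fold. Whether the cell was a doublet, a droplet that held more than 1 cell, was not assessed.

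A value of that table, turned into a mean count as if counts followed a Poisson distribution, also rises with the spread between cells. For PRNP it was set against genes whose corrected mean was within 20% of its own in the same sub-population. It was above 84.5% to 97.9% of such genes in 8 of sub-populations 0 to 8, and above 50.7% in PC9-BrM4 sub-population 7. In PC9 the share was 97.9% in mitotic sub-population 3 and 87.9% in non-mitotic sub-population 2. In PC9-BrM4 it was 96.0% in mitotic sub-population 6. PRNP was thus among the more unevenly spread genes of its level in most sub-populations, though a few cells can set this value.

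**Figure D4:**
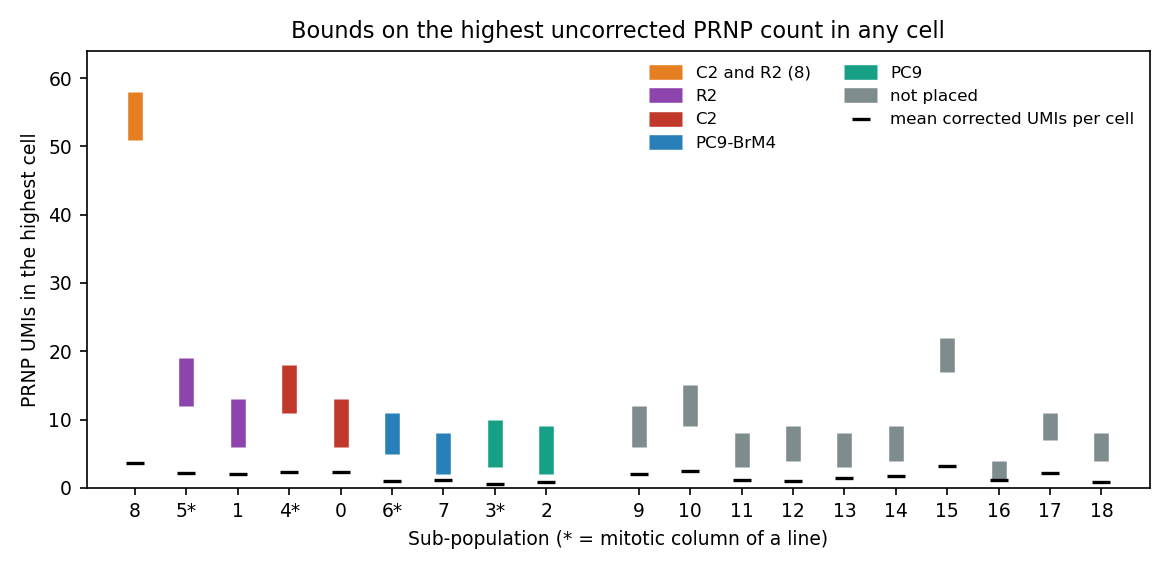
Bounds on the highest uncorrected PRNP count in any cell (y axis, UMIs; each bar runs from the lower to the upper bound) in each sub-population (x axis), with the mean corrected UMIs per cell as a black dash. Sub-population 8 lies between 51 and 58 UMIs, 15 between 17 and 22, and the others at 19 or less.

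The genes whose pattern was most like that of PRNP were then sought by Pearson's r of log2(CPM + 5) over the 19 sub-populations. The sub-populations share 4 libraries and 1 clustering, so that r describes these columns only and carries no p. Over 7283 measured genes the median r was 0.03, and 60 genes were above 0.8. The 12 most like PRNP were MGP (0.91), SELENOM (0.91), SRP19 (0.91), SFTA1P (0.90), CD59 (0.90), CSTA (0.89), IL11 (0.89), DAP (0.89), SH3KBP1 (0.89), STK17A (0.89), S100A4 (0.89) and FAM96B (0.88). Of the 12, 10 are also in the MetRes list, all but DAP and SH3KBP1, and the list was chosen on these samples. Its 254 other genes had a median r of 0.61 with PRNP and made up 45 of the 60 above 0.8.

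MGP, matrix Gla protein, an inhibitor of calcification in the extracellular matrix, had a far wider range than PRNP. It was at 827 CPM in sub-population 8, at a mean of 477 CPM in R2 and C2 and at 26.1 CPM in PC9 and PC9-BrM4 sub-populations. S100A4, a calcium-binding protein linked to cell motility, had means of 212 CPM in R2 and C2 and 13.1 CPM in PC9 and PC9-BrM4. IL11, a cytokine of the IL-6 family, was highest in sub-population 15 at 579 CPM, where PRNP was second to 8. CSTA, cystatin A, an inhibitor of cysteine proteases, was at 66.6 CPM in sub-population 8, against means of 27.0 CPM in R2 and C2 and 1.06 CPM in PC9 and PC9-BrM4.

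CD59, which protects cells from complement and is held by a GPI anchor as PrP is, was at 132 and 119 CPM in R2 sub-populations 5 and 1 and at 104 and 109 CPM in C2 sub-populations 4 and 0. It was at 62.4 and 56.8 CPM in PC9-BrM4 sub-populations 6 and 7 and at 47.6 and 53.6 CPM in PC9 sub-populations 3 and 2. Its order of lines matched that of PRNP except that R2 was above C2. SH3KBP1, an adaptor of receptor endocytosis, spanned less, with means of 94.3 CPM in R2 and C2 and 59.2 CPM in PC9 and PC9-BrM4. Over sub-populations 0 to 8 alone it was the gene most like PRNP (r = 0.99, n = 9 columns), followed by PLAU, the urokinase plasminogen activator, ITGA3, the integrin α3 subunit, and VDR, the vitamin D receptor (0.98 each). Of the 12 genes most like PRNP over all columns, 3 were among the 12 over these 9.

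The 6 genes most unlike PRNP were TTLL4 (-0.81), SSR2 (-0.77), SOX4 (-0.77), CYP1B1 (-0.75), NFIA (-0.75) and HCG18 (-0.75), none of them in the MetRes list. CYP1B1, a cytochrome P450 that metabolizes xenobiotics, had means of 8.49 CPM in R2 and C2 and 100 CPM in PC9 and PC9-BrM4 sub-populations. SOX4, a transcription factor of progenitor cells, had means of 7.26 CPM in R2 and C2 and 39.7 CPM in PC9 and PC9-BrM4. SSR2, a subunit of the translocon-associated complex of the endoplasmic reticulum, had means of 67.9 CPM in R2 and C2 and 143 CPM in PC9 and PC9-BrM4. These genes were low where PRNP was high, over the same columns.

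**Figure D5:**
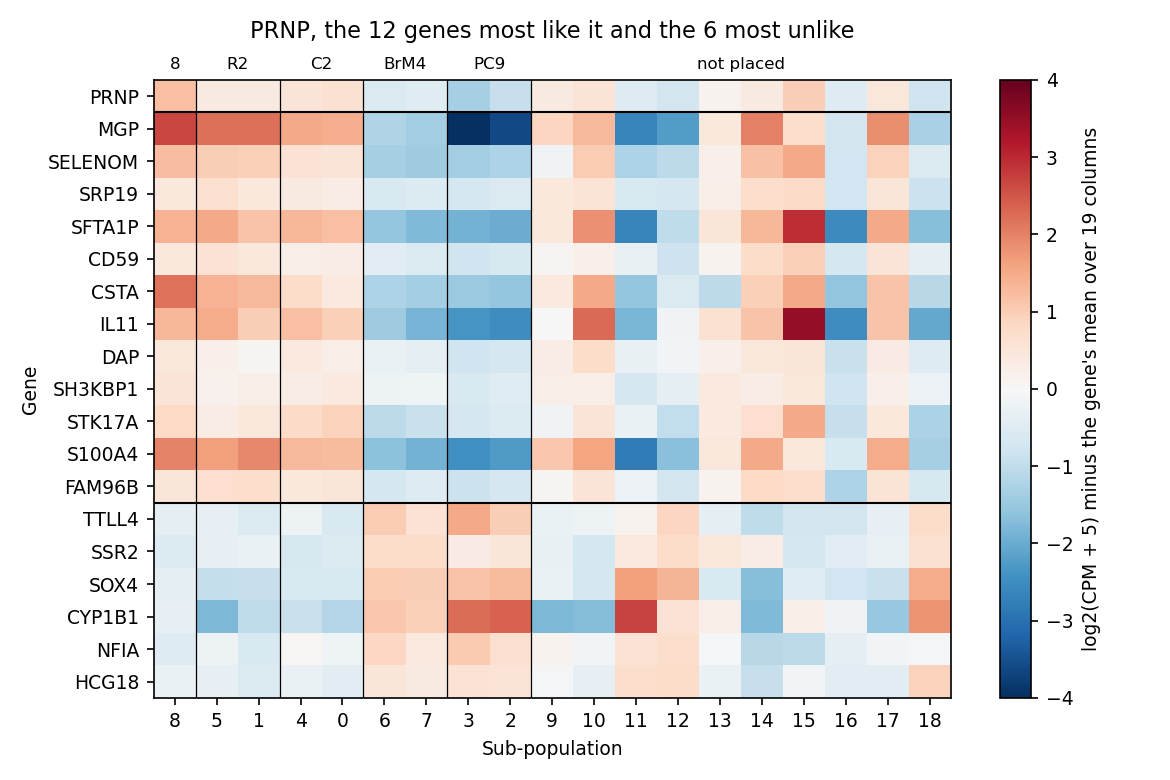
Levels of PRNP, the 12 genes most like it and the 6 most unlike (rows) in the 19 sub-populations (columns, grouped by line), as log2(CPM + 5) less the mean of each gene over the columns. MGP, S100A4 and IL11 span more than PRNP, whose lowest column is PC9 sub-population 3 at 39.9 CPM and highest is 8 at 254 CPM, and the 6 lower rows run the other way.

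The study names RHOC and FOSL1 among the genes beside PRNP that were high in R2-enriched sub-populations. RHOC, a GTPase of the actin cytoskeleton, averaged 228 CPM in R2, 131 CPM in C2, 97.9 CPM in PC9-BrM4 and 97.8 CPM in PC9 sub-populations. FOSL1, an AP-1 transcription factor, averaged 87.2 CPM in R2, 85.01 CPM in C2, 54.8 CPM in PC9-BrM4 and 37.1 CPM in PC9. RHOC therefore had its R2 mean above its C2 mean (effect 0.77), which PRNP (-0.21) did not, and FOSL1 lay between (0.02), none of them called. Their r with PRNP was 0.76 for RHOC and 0.69 for FOSL1.

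Other GPI-anchored proteins were counted from a list of 91 without PRNP, of which 21 were measured. In R2 and C2 against PC9 and PC9-BrM4 sub-populations 3 were called higher (BST2, CD59 and MSLN) and 1 lower (ALPP), beside 1.42% and 1.03% of all genes, and the median effect was 0.36 beside -0.14 for all genes. BST2, an interferon-induced protein that tethers viruses, averaged 144 CPM in R2 and C2, against 15.4 CPM in PC9 and PC9-BrM4, but unlike PRNP was lower in PC9-BrM4 (3.65 and 4.49 CPM) than in PC9 (26.6 and 27.0 CPM). MSLN, mesothelin, averaged 21.8 CPM in R2 and C2 and 4.46 CPM in PC9 and PC9-BrM4. ALPP, placental alkaline phosphatase, averaged 3.08 CPM in R2 and C2 and 24.7 CPM in PC9 and PC9-BrM4. MSLN and ALPP were thus measured only through the group where they were high. Only BST2 and MSLN of the 21 had a larger effect than PRNP.

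In the narrower comparisons, CD55, a complement inhibitor, was called higher in C2 than in PC9-BrM4 together with BST2 and MSLN (3 of 20, beside 1.74% of all genes). BST2 and MSLN averaged 4.07 and 2.89 CPM in PC9-BrM4, and were measured there only through the other line. PRSS21, a serine protease, was called higher in R2 than in PC9-BrM4 together with BST2, CD59 and MSLN (4 of 20, beside 2.37%), and CD109, an antagonist of TGF-β signaling, lower (1 of 20, beside 2.54%). PC9-BrM4 had ALPP, BST2 and PSCA called lower than PC9 (3 of 21, beside 0.383%) and 0 called higher (beside 0.0925%). Sub-population 8 had CD24 and PSCA called higher than R2 and C2 sub-populations (2 of 21, beside 0.629%). CD24, a mucin-like adhesion molecule, was at 183 CPM in sub-population 8, against a mean of 88.1 CPM in R2 and C2, and PSCA, prostate stem cell antigen, was at 80.3 CPM in sub-population 8, against 35.9 CPM in R2 and C2. Between R2 and C2, 0 of 20 were called.

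Of 28 listed enzymes that build and attach the GPI anchor, 16 were measured in R2 and C2 against PC9 and PC9-BrM4 sub-populations, and 0 were called in either direction (median effect -0.17). With 1.42% of all genes called higher and 1.03% lower, a count of 0 says little of a list of this size, here and for the lists that follow. Of those 16, PIGS, a subunit of the GPI transamidase that attaches the anchor, PIGF, which acts in its synthesis, and DPM1, a subunit of dolichol-phosphate mannose synthase, had the largest effects, -0.62, -0.62 and -0.53. Among PrP partners and its sheddase, 9 of 11 were measured and 0 were called, beside the same 1.42% and 1.03%. FYN, a kinase downstream of PrP in neurons, averaged 19.6 CPM in R2 and C2, against 9.19 CPM in PC9 and PC9-BrM4. STIP1 had an effect of -0.41 and GPC1, glypican-1, a heparan sulfate proteoglycan with a GPI anchor of its own, of 0.38. RPSA had an effect of 0.03 and ADAM10 of -0.06.

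Copper-handling genes were listed since PrP binds copper. Of 18, 10 were measured in R2 and C2 against PC9 and PC9-BrM4 and 0 were called, beside 1.42% higher and 1.03% lower of all genes, with a median effect of 0.01. STEAP4, a metalloreductase, was called higher in C2 than in PC9-BrM4 sub-populations, beside 1.74% of all genes. It was at 44.1 and 34.6 CPM in 4 and 0, against 12.8 and 4.82 CPM in 6 and 7. MT1X, a metallothionein, was called lower in that comparison, beside 0.827% of all genes (80.4 and 78.8 CPM in C2, against 217 and 159 CPM in PC9-BrM4). It was called higher in sub-population 8 than in R2 and C2, beside 0.629% (228 CPM against a mean of 93.6 CPM). Sub-population 8 was thus the highest in both PRNP and MT1X. In R2 and C2 against PC9 and PC9-BrM4, MT1X ran against PRNP, with an effect of -0.79. In PC9-BrM4 against PC9 its effect was 0.35, in the same direction as that of PRNP. Of 6 transcription factors reported to act on PRNP (SP1, MTF1, XBP1, ATF6, HSF1 and FOXO3), 6 were measured and 0 were called in any of the 7 comparisons, where at most 2.54% of all genes were called in the directions given above. The 3 largest effects of R2 and C2 against PC9 and PC9-BrM4 were those of SP1 (-0.47), HSF1 (0.43) and ATF6 (-0.25).

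Other synapse genes were counted because PRNP was named as one. Of 35 listed, 26 had a row but 6 were measured in R2 and C2 against PC9 and PC9-BrM4, and 0 of the 6 were called, beside 1.42% higher and 1.03% lower of all genes, with a median effect of -0.0022. HOMER3, a postsynaptic scaffold, averaged 126 CPM in R2 and C2, against 83.1 CPM in PC9 and PC9-BrM4. HOMER1, of the same family, had an effect of -0.40. NSF, an ATPase of vesicle fusion that all cells use, averaged 26.7 CPM in R2 and C2 and 38.9 CPM in PC9 and PC9-BrM4. Those with no row included SYN1, NLGN1, GRIA1, GRIA2, CPLX2, DLGAP1 and RIMS1.

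Genes beside PRNP on chromosome 20 were compared last. Within 200 kb, PRNP was the 1 measured gene, and the 5 measured genes on each side lay at distances of 382 to 1251 kb between starts. TMEM230, a vesicle membrane protein whose start is 382 kb away, had the most similar pattern (r = 0.86). Its effect of 0.999 in R2 and C2 against PC9 and PC9-BrM4 fell just short of the threshold. It was called higher in R2 than in PC9-BrM4 (1.11), beside 2.37% of all genes. The other 9 (AP5S1, MAVS, PANK2, RNF24, SMOX, PCNA, CDS2, GPCPD1 and TRMT6) had r between -0.50 and 0.20. They were called in none of the comparisons in which they were measured, which for AP5S1 was PC9-BrM4 against PC9 alone. With at most 2.54% of all genes called in the directions given above, this says little of 9 genes. PCNA, the sliding clamp of DNA replication, had an effect of -0.03 in R2 and C2 against PC9 and PC9-BrM4. Of the 10 measured neighbors, 1 thus had an r with PRNP above 0.8, beside 60 of 7283 measured genes.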

How the data were processed

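According to the study's methods, libraries were made with 10x 3′ version 3 chemistry, Cell Ranger aligned the reads to hg38, cells with at least 200 transcripts and genes found in at least 3 cells were kept, and counts were normalized in Seurat 3 with sctransform, regressing out the mitochondrial percentage, before clustering. The values of the first table the authors deposited are the mean corrected UMIs per cell of each sub-population. Multiplied by a whole number of cells, they gave whole UMIs within 0.001, which gave the cell numbers. The second table the authors deposited holds another quantity, the mean of e to the power of the uncorrected count less 1, and 140 missing values of 20 genes were left out. Relative raw depth is the median ratio of the tables for genes of 0.1 to 0.3 corrected UMIs per cell.

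Columns were rescaled to a sum of 1000000 (CPM). Intervals are exact Poisson for levels, exact conditional for ratios and by the delta method for effects. Sub-populations are not replicates, so that no test was run. PRNP, the 15 gene lists, the comparisons and the placement were chosen with earlier results of these data known. Genes were named if among the 12 most like or 6 most unlike PRNP (without ribosomal, mitochondrial and clone-named genes), if a list member was called or had 1 of its 3 largest effects, if the study named them with PRNP (1 such gene is not reported here), or if among the 5 nearest measured genes on each side. PLAU, ITGA3, VDR, PTPRC, CD68, RPSA and ADAM10 and some other list members were named after their values were seen. Alternatives were the second table, pseudocounts of 1 and 20, no rescaling, centering on the median gene, a filter of 50 CPM or none, a size threshold of 0.5 and leaving out 1 sub-population at a time. The contrast and likeness calculations were tested on simulated data. Python 3 with pandas, numpy and scipy was used, and gene positions came from GENCODE 44.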

Additional observations from a re-analysis of the deposited data

How the results depend on the processing

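Of 71 recalculated PRNP effects, 67 kept their direction. The 4 that did not were of mitotic against non-mitotic sub-populations, where PRNP was not called. In size, 32 of the 71 lay within the counting interval of the main effect and 39 lay outside it. The choice of processing thus often moved an effect by more than its printed interval. The table of uncorrected counts gave effects of 1.63 for R2 and C2 against PC9 and PC9-BrM4, 0.40 for PC9-BrM4 against PC9, 1.43 for C2 against PC9-BrM4, 1.43 for R2 against PC9-BrM4, now past 2-fold, -0.0018 for R2 against C2, 2.68 for sub-population 8 against R2 and C2, now past 2-fold, and 0.72 for mitotic against non-mitotic sub-populations. In that table cells with many UMIs weigh most by construction. In the same order and with R2 against C2 left out, a pseudocount of 20 gave 1.11, 0.48, 0.96, 0.77 and 0.68 for the comparisons up to sub-population 8. With it the call of C2 against PC9-BrM4 was lost. A pseudocount of 1 gave 1.35 for R2 and C2 against PC9 and PC9-BrM4. Without rescaling, R2 against C2 was -0.16 and mitotic against non-mitotic -0.092. Centered on the median gene, the effects were 1.42 for R2 and C2 against PC9 and PC9-BrM4, 0.71 for PC9-BrM4 against PC9, 1.15 for C2 and 0.97 for R2 against PC9-BrM4, 0.79 for sub-population 8 and -0.34 for mitotic against non-mitotic sub-populations. Leaving out 1 sub-population at a time gave 1.12 to 1.41 for R2 and C2 against PC9 and PC9-BrM4, 0.39 to 0.81 for PC9-BrM4 against PC9, 1.04 to 1.14 for C2 and 0.83 to 0.93 for R2 against PC9-BrM4, -0.25 to -0.17 for R2 against C2, 0.69 to 0.78 for sub-population 8 and -0.42 to 0.21 for mitotic against non-mitotic sub-populations. Of the 12 genes most like PRNP, 8 to 12 remained with 1 column left out, 3 over sub-populations 0 to 8, 2 with Spearman's rho and 3 in the table of uncorrected counts. The cause of these moves was not tested.

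Counts of called genes depended on the settings. R2 and C2 against PC9 and PC9-BrM4 had 181 calls, and 84 with a filter of 50 CPM, 1220 at a size of 0.5 and 325 in the table of uncorrected counts. The same settings gave 17, 352 and 244 beside 36 for PC9-BrM4 against PC9, 84, 1128 and 336 beside 186 for C2 against PC9-BrM4, and 165, 2160 and 603 beside 354 for R2 against PC9-BrM4. They gave 43, 652 and 432 beside 89 for sub-population 8 and 21, 197 and 84 beside 50 for mitotic sub-populations, and a size of 0.5 and the table of uncorrected counts gave 770 and 107 beside 25 for R2 against C2.

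No paired test was run, because there was 1 library per line and sub-populations carry no replicate number. The mitotic and non-mitotic sub-populations of a line were set side by side within the line, as ratios with no test. Intervals cover counting error only and not the spread between cells. Culture, library and line cannot be told apart, and values of single cells were not analysed here.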
